A study of Mus musculus with 50 samples.

Results

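Cholinergic interneurons are the acetylcholine neurons of the striatum and the nucleus accumbens (NAc), where they are a small minority beside the medium spiny neurons (MSNs). They make acetylcholine with choline acetyltransferase, load it into vesicles, and take choline back up at the terminal, and many of them also carry a vesicular glutamate transporter. They are known to express the dopamine D2 receptor, the gene whose promoter drives Cre in one of the 2 mouse lines compared here.

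The genes described are 7 of the 24552 listed in both count tables, chosen by symbol: *Chat* (choline acetyltransferase), *Slc18a3* (the vesicular acetylcholine transporter), *Slc5a7* (the high-affinity choline transporter), *Slc10a4* (an orphan transporter of cholinergic and monoaminergic synaptic vesicles), *Slc17a8* (the vesicular glutamate transporter VGLUT3), and the transcription factors *Lhx8* and *Gbx2*, both needed for the development of these interneurons. The question was which of the 2 Cre lines captured their mRNA, and whether stress or a Sirt1 knockout moved it. All 7 passed the filter on low counts in the models of IPs, of inputs and of both together, and 6 of 7 in the knockout model, where *Slc18a3* did not.

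RiboTag (RT) mice carry an HA tag on a ribosomal protein that Cre switches on, so that an antibody to HA pulls down the ribosomes, and the mRNA on them, of the cells with Cre. The mice, RT; D1-Cre or RT; D2-Cre, were C57BL/6 and 8 to 12 weeks old, and carried a Cre transgene driven by the promoter of the dopamine D1 or D2 receptor gene. Such a promoter is not used by MSNs alone, and which cells carried Cre was not measured in these libraries. Each library came from 6 NAc punches pooled from 2 mice. Susceptible (Sus) and resilient (Res) mice were sorted by a social interaction test after up to 10 days of chronic social defeat of 10 min per day by the labels, where the study's methods give a shorter daily exposure, and control (Con) mice were not defeated. There were 28 immunoprecipitates (IPs): 4 D1 Con, 4 D1 Res, 5 D1 Sus, and 5 each of D2 Con, D2 Res and D2 Sus. The 18 inputs were total RNA of the same tissue, 3 per line and stress group. Another 4 D1-IPs came from undefeated RT; Sirt1-floxed; D1-Cre mice, labelled Sirt1-KO, whose age the labels do not give. The 46 IPs and inputs held 18384265 to 31009626 counts on genes. For Sirt1-KO the totals were 22174187 to 31785984. Levels are CPM, each gene's share of a library's counts on a fixed common scale, after TMM scaling. D1-MSN and D2-MSN markers followed the labels: 4 of 4 D1-MSN markers were lower and 4 of 4 D2-MSN markers higher in D2-IPs than in D1-IPs.

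*Chat* and *Slc18a3* share a locus on the minus strand of chromosome 14 (mm10, annotation GENCODE vM21). *Chat* spans chr14:32408203-32465989, and the single exon of *Slc18a3*, at chr14:32462438-32464850, lies inside the first intron of *Chat*. It starts 1139 bases from the annotated *Chat* start and shares 0 exonic bases with *Chat*. The other members lie apart from each other: *Slc5a7* at chr17:54273590-54299034, *Slc10a4* at chr5:73006883-73012955, *Lhx8* at chr3:154306294-154330659, *Slc17a8* at chr10:89574020-89621253 and *Gbx2* at chr1:89927956-89931179. The antisense gene *D130058E05Rik* covers 946 exonic bases of *Gbx2*. The kit keeps strand, but the strand setting of the counting is not given in the sources used here, so *Gbx2* counts could hold reads of that partner.

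**Figure D1:**
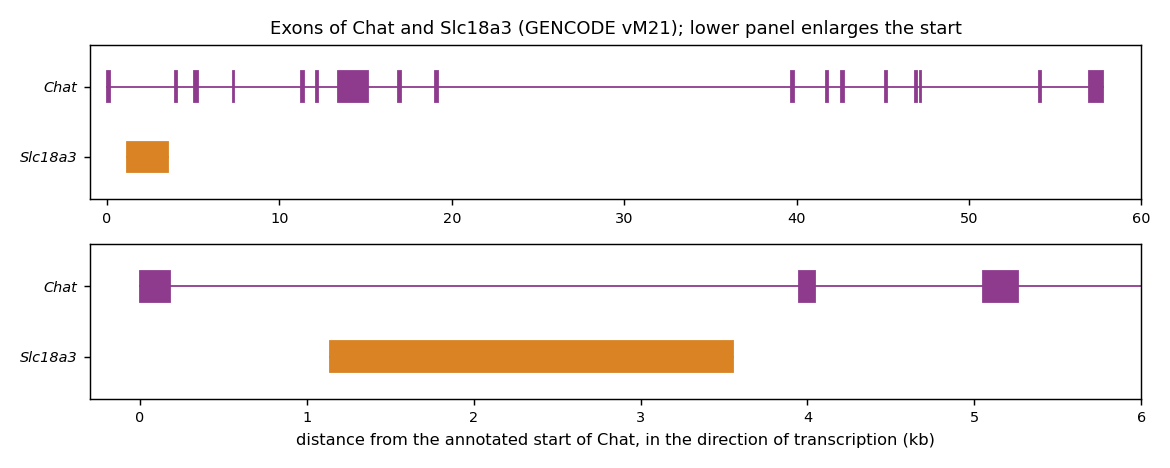
Exon blocks of Chat and Slc18a3 against the distance from the annotated start of Chat in kb; the lower panel enlarges the first 6 kb. The 1 exon of Slc18a3, of 2413 bases, sits between the first and second Chat exon blocks and overlaps neither.

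The start regions of 4 members are shown, from 250 bases before to 50 after the RefSeq start (GRCm38.p6). *Chat*, *Slc18a3* and *Slc5a7* are the 3 genes of the acetylcholine cycle that differed most between the lines, and *Lhx8* is a transcription factor among the members that was not called. Capitals mark the 50 bases from the start onward, and all 4 lie on the minus strand, at chr14:32465860-32466159, chr14:32464801-32465100, chr17:54298985-54299284 and chr3:154330511-154330810.
Chat: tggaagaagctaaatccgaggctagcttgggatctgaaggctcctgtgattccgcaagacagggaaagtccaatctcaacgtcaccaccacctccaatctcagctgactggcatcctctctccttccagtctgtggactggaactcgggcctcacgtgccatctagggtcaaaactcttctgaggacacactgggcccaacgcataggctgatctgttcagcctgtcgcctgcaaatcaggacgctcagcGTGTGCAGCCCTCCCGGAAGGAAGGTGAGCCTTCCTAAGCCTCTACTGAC
Slc18a3: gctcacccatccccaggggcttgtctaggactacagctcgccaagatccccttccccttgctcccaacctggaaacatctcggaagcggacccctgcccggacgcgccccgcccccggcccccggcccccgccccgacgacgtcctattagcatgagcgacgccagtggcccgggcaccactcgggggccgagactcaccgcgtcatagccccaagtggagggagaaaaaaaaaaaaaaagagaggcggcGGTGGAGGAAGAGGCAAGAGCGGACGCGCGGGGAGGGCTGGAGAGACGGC
Slc5a7: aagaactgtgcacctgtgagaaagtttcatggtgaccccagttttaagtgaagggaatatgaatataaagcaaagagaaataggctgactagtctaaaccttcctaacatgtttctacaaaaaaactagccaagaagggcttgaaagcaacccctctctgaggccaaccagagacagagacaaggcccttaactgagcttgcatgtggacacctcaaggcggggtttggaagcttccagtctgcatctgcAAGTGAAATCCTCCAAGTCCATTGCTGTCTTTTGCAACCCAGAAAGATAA
Lhx8: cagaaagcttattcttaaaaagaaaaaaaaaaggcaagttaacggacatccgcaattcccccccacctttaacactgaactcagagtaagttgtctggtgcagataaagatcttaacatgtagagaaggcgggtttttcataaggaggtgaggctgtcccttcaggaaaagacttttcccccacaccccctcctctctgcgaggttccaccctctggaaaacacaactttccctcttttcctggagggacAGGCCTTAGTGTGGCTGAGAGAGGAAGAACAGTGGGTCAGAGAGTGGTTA
Base composition differed among them, with 67.0% G and C in *Slc18a3*, 55.7% in *Chat*, 47.0% in *Lhx8* and 44.7% in *Slc5a7*, against a median of 52.7% over 32851 promoter windows. The homeodomain core ATTA, searched on both strands, occurred 1 time in the *Slc18a3* window and 0 times in those of *Chat*, *Slc5a7* and *Lhx8*, and 58.0% of all windows hold it. The longer TAATTA, which contains that core, was in 0 of these 4 windows and in 5.29% of all windows. In the member windows not shown, ATTA occurred 2 times for *Slc10a4* and 1 time for *Gbx2*. For *Slc17a8* it occurred 0 times at chr10:89621200-89621499 and 4 times at chr10:89599766-89600065. The latter window also held TAATTA 1 time, and the others not shown held it 0 times.

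The genes of the acetylcholine cycle were high in D2-IPs and low in D1-IPs. In the 15 D2-IPs *Chat* ran from 16.7 to 34.4 CPM, with a median of 22.6. In the 13 D1-IPs it ran from 1.58 to 6.70 CPM, with a median of 1.98. The lowest D2-IP thus lay above the highest D1-IP, and the fitted difference was 10.2-fold (log2 fold change 3.35 ± 0.16 SE, edgeR quasi-likelihood test, Benjamini-Hochberg adjusted p = 4.51e-16). *Slc18a3* ran from 7.00 to 14.9 CPM (median 10.1) in D2-IPs and from 0.147 to 2.93 CPM (median 0.502) in D1-IPs, where single libraries held 4 to 66 counts. It had the largest difference of the 7 genes, 14.8-fold (log2 3.88 ± 0.24 SE, edgeR adjusted p = 1.17e-13). *Slc5a7* ran from 26.5 to 63.7 CPM (median 41.3) in D2-IPs and from 2.48 to 12.1 CPM (median 3.76) in D1-IPs, a 9.70-fold difference (log2 3.28 ± 0.17 SE, edgeR adjusted p = 2.41e-15). For these 3 genes the IPs of the lines did not overlap.

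The vesicle transporters were also higher in D2-IPs, by unequal amounts. *Slc10a4* ran from 10.8 to 23.2 CPM (median 17.8) in D2-IPs and from 1.05 to 5.37 CPM (median 2.20) in D1-IPs, a 7.49-fold difference (log2 2.91 ± 0.15 SE, edgeR adjusted p = 2.87e-15). *Slc17a8* ran from 13.4 to 20.1 CPM (median 16.4) in D2-IPs and from 3.37 to 12.4 CPM (median 8.35) in D1-IPs, a 2.13-fold difference (log2 1.09 ± 0.12 SE, edgeR adjusted p = 1.62e-08). Neither gene's ranges overlapped, so that 5 of 7 genes were higher without overlap, against 0.801% of all genes (2.82% in either direction).

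The 2 transcription factors were not called between the lines. *Lhx8* ran from 2.23 to 9.86 CPM (median 6.30) in D2-IPs and from 2.51 to 7.41 CPM (median 5.24) in D1-IPs, a log2 fold change of 0.39 with a 95% interval from 0.05 to 0.73 (edgeR adjusted p = 0.0639). *Gbx2* ran from 1.20 to 4.51 CPM (median 2.40) in D2-IPs and from 1.21 to 3.55 CPM (median 1.90) in D1-IPs, a log2 fold change of 0.26 with a 95% interval from -0.12 to 0.64 (edgeR adjusted p = 0.284). Their ranges overlapped between the lines, and both intervals exclude a difference as large as that of *Slc17a8*.

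In all, 5 of 7 genes were higher in D2-IPs and 0 were lower at a fold over 1.5 and an adjusted p under 0.05, where 7.66% of 14224 genes were called in either direction and 2.71% were higher. The median log2 fold change of the 7 was 2.91, against 0.02 over all genes tested. The same 5 genes passed within each stress group taken alone, where 4.98% (Con), 5.52% (Res) and 5.55% (Sus) of genes were called. *Chat* was 12.2-fold higher in D2 Con, 7.92-fold in D2 Res and 10.9-fold in D2 Sus than in the D1-IPs of the same condition. The *Slc18a3* folds were 21.9, 8.43 and 17.5 in the same order. The lower values in Res went with 1 library: without D1 Res 1 the log2 fold change in Res rose from 2.98 to 3.66 for *Chat* and from 3.08 to 4.04 for *Slc18a3*. Cortical excitatory neuron markers moved the other way with the line: 6 of 6 were lower in D2-IPs, and their summed level ran from 21.9 to 318 CPM in D2-IPs and from 402 to 1427 CPM in D1-IPs. GABAergic interneuron markers summed to between 168 and 229 CPM in D2-IPs and between 238 and 352 CPM in D1-IPs, with 1 of 8 higher and 4 lower in D2-IPs. Markers of monoamine neurons, which also use *Slc10a4*, summed to between 27.2 and 50.7 CPM and between 17.5 and 28.8 CPM in the same order, with 2 of 5 tested higher and 1 lower. The part of these other cells in the result was not tested.

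**Figure D2:**
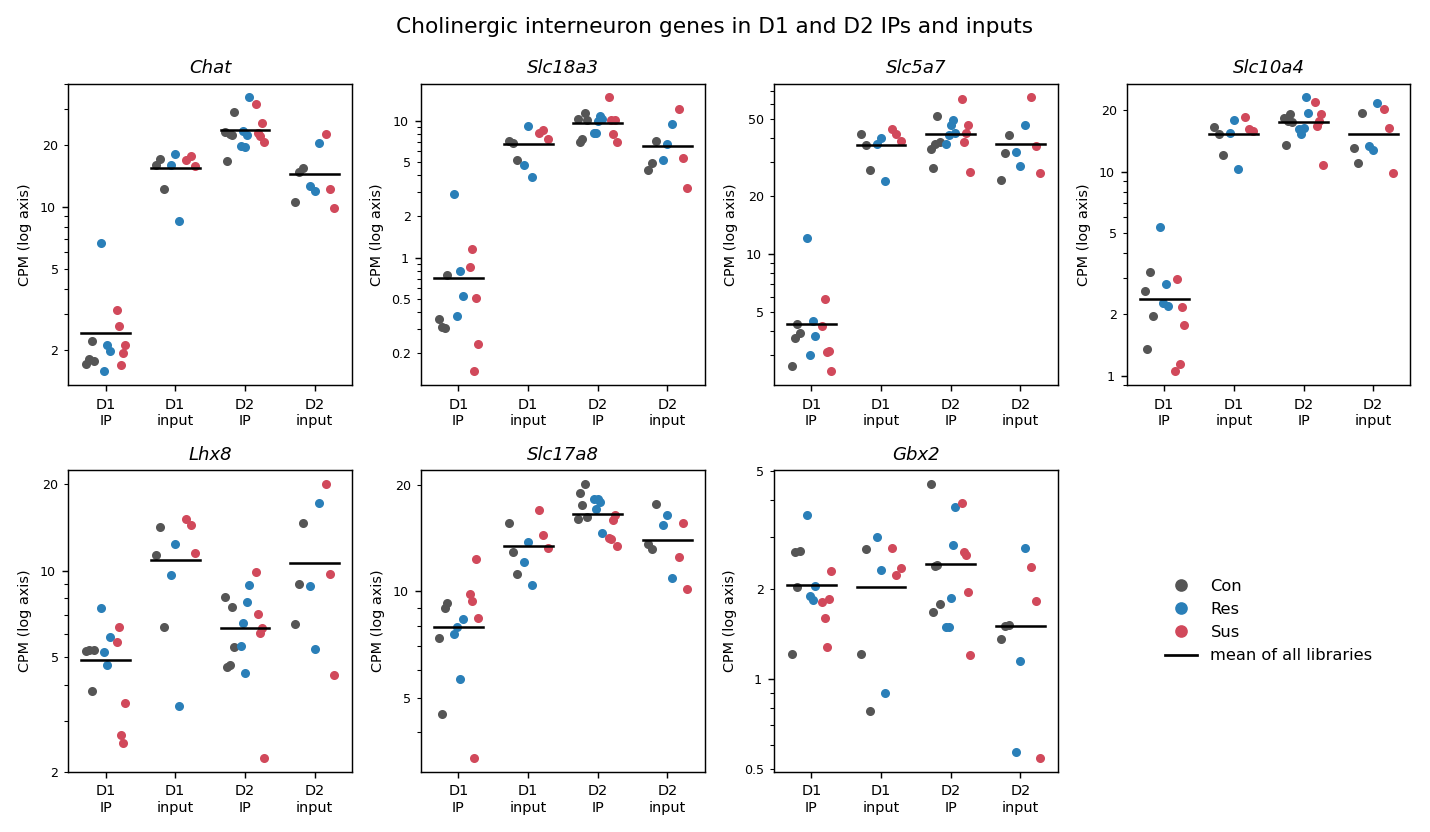
CPM on a log axis of each gene in every D1 and D2 IP and input, with 1 point per library coloured by stress group and a line at the mean of all libraries of a kind. In Chat, Slc18a3, Slc5a7 and Slc10a4 the 13 D1-IPs form the lowest set and overlap with none of the others, while Lhx8 and Gbx2 overlap throughout.

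Per length of annotated exon, the order of levels in D2-IPs was *Slc10a4* (8.34 ± 1.44 CPM per kb, SD, n = 15), *Slc5a7* (7.36 ± 1.66), *Chat* (5.08 ± 1.01), *Slc18a3* (3.99 ± 0.861), *Slc17a8* (3.52 ± 0.419), *Lhx8* (2.50 ± 0.776) and *Gbx2* (1.12 ± 0.447). The neighbours *Slc10a4* and *Slc5a7*, and *Slc18a3* and *Slc17a8*, differed by less than 1 SD. In D1-IPs the order differed, with *Lhx8* first (1.93 ± 0.564 CPM per kb, SD, n = 13), then *Slc17a8* (1.68 ± 0.501), *Slc10a4* (1.13 ± 0.536), *Gbx2* (0.947 ± 0.289), *Slc5a7* (0.776 ± 0.440), *Chat* (0.514 ± 0.289) and *Slc18a3* (0.294 ± 0.301). *Slc10a4*, *Slc5a7*, *Chat* and *Slc18a3* kept their order among themselves, and the transcription factors stood above the 3 acetylcholine genes in D1-IPs and below them in D2-IPs. In the inputs of both lines the order was *Slc10a4*, *Slc5a7*, *Lhx8*, *Chat*, *Slc17a8*, *Slc18a3* and *Gbx2*.

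The inputs showed how much of each mRNA the tissue held before the pulldown. Between D2-inputs and D1-inputs 0 of 7 genes were called, where 0.0266% of 15063 genes were, and 0 had an unadjusted edgeR p under 0.05 or were called by DESeq2. *Chat* ran from 9.92 to 22.8 CPM (median 12.7) in D2-inputs and from 8.56 to 18.1 CPM (median 16.0) in D1-inputs, a fold of 0.946 with a 95% interval from 0.740 to 1.21. For *Slc5a7* the fold was 1.01 (95% interval 0.796 to 1.28). Both intervals lie far below the differences between the IPs, and smaller differences between the inputs were not detectable. In RNA of bulk tissue, fewer cells of a type and less RNA per cell cannot be told apart.

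Against their own inputs, D1-IPs were depleted of the acetylcholine genes. *Slc18a3* was 10.2-fold lower in D1-IPs than in D1-inputs (log2 -3.35 ± 0.26 SE, edgeR adjusted p = 5.06e-15), *Slc5a7* 8.48-fold lower (log2 -3.08 ± 0.18 SE), *Chat* 6.50-fold lower (log2 -2.70 ± 0.18 SE) and *Slc10a4* 6.46-fold lower (log2 -2.69 ± 0.17 SE). *Lhx8* was 2.19-fold lower and *Slc17a8* 1.71-fold lower. *Gbx2*, at a log2 fold change of 0.05 (95% interval -0.47 to 0.56), was not called. So 6 of 7 genes were lower in D1-IPs, where 43.1% of 15404 genes were called in either direction and 29.3% were lower. The mean *Chat* level in D1-IPs was 15.6% of that in D1-inputs, and that of *Slc18a3* was 10.4%.

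In D2-IPs 2 of these mRNAs were above the level of the tissue and 1 was below it. *Chat* was 1.64-fold higher in D2-IPs than in D2-inputs (log2 0.71 ± 0.16 SE, edgeR adjusted p = 7.75e-05) and *Gbx2* 1.62-fold higher (log2 0.70 ± 0.26 SE, adjusted p = 0.0125). The *Gbx2* value rests on few counts, 28 to 117 in D2-IPs and 12 to 59 in D2-inputs, which could hold reads of its antisense partner. *Lhx8* was 1.67-fold lower (log2 -0.74 ± 0.23 SE, edgeR adjusted p = 0.00294). *Slc18a3* had a log2 fold change of 0.56 ± 0.21 SE and an adjusted p of 0.0138 in edgeR, but its fold of 1.48 was under the limit of 1.5. *Slc5a7* (log2 0.17, 95% interval -0.15 to 0.49), *Slc10a4* (0.20, -0.10 to 0.49) and *Slc17a8* (0.25, 0.00 to 0.50) were not called. This gave 2 genes higher and 1 lower of 7, where 43.6% of all genes were called, 12.8% higher and 30.8% lower. The calls near the limit moved: *Slc18a3* passed in 12 of the 24 fits that left 1 library out, *Lhx8* was lost without the D2 Res 3 input (log2 -0.55) or the D2 Sus 1 input (log2 -0.46), and *Gbx2* was lost when libraries were scaled by size alone (log2 0.57). Oligodendrocyte markers, taken here as a measure of RNA from cells outside the aim of either Cre line, summed to between 3804 and 5070 CPM in D2-inputs. Their sums ran from 377 to 621 CPM in D2-IPs and from 460 to 736 CPM in D1-IPs. The part of such carried-over RNA in the member levels was not tested.

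The step from input to IP differed between the lines for the same 5 genes that differed between the IPs, where 7.59% of all genes were called. The difference was 10.7-fold for *Chat* (log2 3.42 ± 0.24 SE, edgeR adjusted p = 3.87e-14), 15.1-fold for *Slc18a3*, 9.53-fold for *Slc5a7*, 7.42-fold for *Slc10a4* and 2.03-fold for *Slc17a8* (log2 1.02 ± 0.18 SE, adjusted p = 2.91e-05). *Lhx8* (log2 0.39, 95% interval -0.28 to 1.05) and *Gbx2* (log2 0.65, -0.08 to 1.38) were not called. This comparison uses the same IPs as the one between the lines and is not a second sample of it.

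Pool by pool, 9 D1 and 9 D2 pools had an IP and an input of the same number. The log2 ratio of IP to input for *Chat* was below 0 in 9 of 9 D1 pools (-3.46 to -1.25, median -2.71) and above 0 in 8 of 9 D2 pools (-0.05 to 1.15, median 0.65). The lowest D2 pool lay above the highest D1 pool for *Chat*, *Slc18a3*, *Slc5a7*, *Slc10a4* and *Slc17a8* alike, which held for 1.25% of all 15404 genes. For each of these 5 the two-sided exact permutation p was 4.11e-05, the smallest that the 48620 divisions of 18 pools allow, and 34.7% of all genes had an unadjusted p under 0.05 in this test. For *Slc18a3* the D1 pools ran from -5.02 to -0.68 and the D2 pools from 0.06 to 1.29. *Lhx8* ratios had a median of -1.17 in D1 pools and -0.69 in D2 pools (exact permutation p = 0.320). The same 5 genes passed with any 1 pool left out, and *Gbx2* passed as well in 4 of those 18 cases. *Gbx2* ratios averaged 0.04 ± 0.71 in D1 and 0.76 ± 0.80 in D2 pools (SD, n = 9, exact permutation p = 0.0592).

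**Figure D3:**
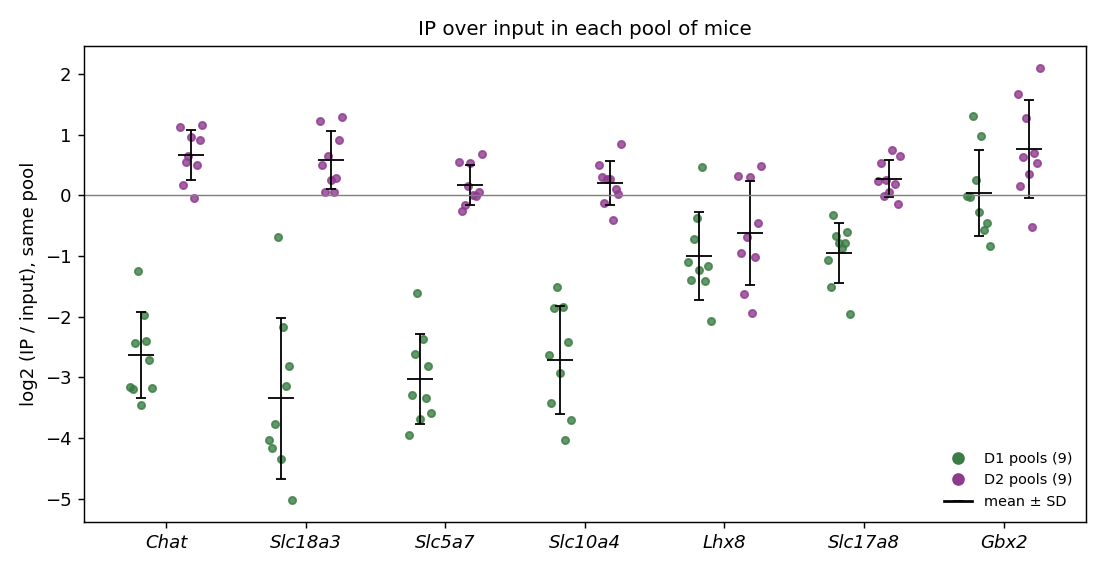
log2 ratio of IP to input of the same pool for each gene, 1 point per pool, with the mean and SD over 9 pools per line and a grey line where IP and input are equal. Chat, Slc18a3, Slc5a7 and Slc10a4 lie below 0 in all 9 D1 pools and around or above 0 in D2 pools; Lhx8 overlaps between the lines.

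Within a pool, IP and input could be compared between genes. In D2 pools the *Chat* ratio exceeded that of *Lhx8* in 9 of 9 pools, by 1.28 ± 0.53 on the log2 scale (SD, n = 9, exact sign-flip permutation adjusted p = 0.0156 over 6 comparisons). It exceeded that of *Slc5a7* by 0.49 ± 0.25 and that of *Slc10a4* by 0.46 ± 0.30, each in 8 of 9 pools with the same adjusted p. Against *Slc18a3* the difference was 0.08 ± 0.33 (exact permutation adjusted p = 0.570, n = 9), against *Gbx2* -0.10 ± 0.54 (0.570) and against *Slc17a8* 0.39 ± 0.61 (0.135). In D1 pools the *Chat* ratio was below those of *Lhx8*, *Slc17a8* and *Gbx2* in 9 of 9 pools, by 1.64, 1.68 and 2.68 on the log2 scale (exact permutation adjusted p = 0.00586 each, n = 9). It was above that of *Slc5a7* in 9 of 9 pools by 0.39 (same adjusted p) and above that of *Slc18a3* in 8 of 9 by 0.71 (adjusted p = 0.0234). Against *Slc10a4* the difference was 0.07 ± 0.71, with *Chat* higher in 4 of 9 pools (exact permutation adjusted p = 0.836, n = 9).

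Other genes of the cholinergic system gave a mixed picture between the IPs. Of 7 genes for acetylcholine breakdown and choline supply, 6 were tested and 1 was called: *Prima1*, which anchors acetylcholinesterase to the membrane, was 2.06-fold higher in D2-IPs (log2 1.04 ± 0.11 SE, edgeR adjusted p = 5.16e-09). *Ache* itself, acetylcholinesterase, had a log2 fold change of 0.26 and fell short of the fold limit, and the median of the 6 was 0.07. Of 9 transcription factors and receptors of cholinergic interneurons, 4 were higher and 2 lower in D2-IPs, where 7.66% of all genes were called and 2.71% were higher. Among them, *Tacr1*, the substance P receptor, was higher by 1.76 ± 0.07 SE on the log2 scale (edgeR adjusted p = 4.26e-18), *Ngfr*, the low-affinity neurotrophin receptor, by 1.75 ± 0.45, and *Ecel1*, an endopeptidase-like protein, by 1.62 ± 0.16. *Isl1*, a LIM homeodomain factor that D1-MSNs also use, was lower in D2-IPs (log2 -1.27 ± 0.10 SE) and higher in D1-IPs than in D1-inputs (log2 0.65 ± 0.12 SE). *Chrm2*, a muscarinic autoreceptor of cholinergic neurons, was also lower in D2-IPs (log2 -0.68 ± 0.14 SE) and was lower in the IPs than in the inputs of both lines (log2 -1.35 in D1 and -2.02 in D2). *Drd5*, *Nkx2-1* and *Zic4* were not called between the IPs.

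**Figure D4:**
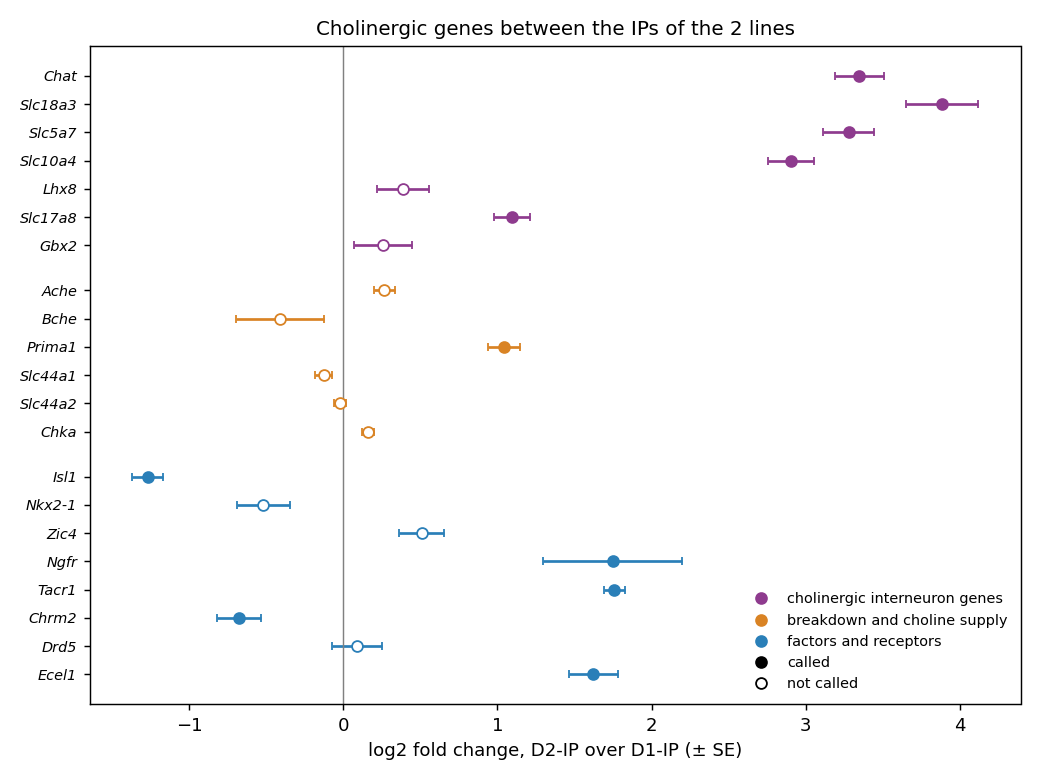
log2 fold change of D2-IP over D1-IP with its SE for the 7 genes and for tested genes of the 2 other cholinergic lists, 6 of the first and 8 of the second; filled points passed a fold over 1.5 and an adjusted p under 0.05. Chat, Slc18a3, Slc5a7 and Slc10a4 sit at the right, and Isl1 and Chrm2 are the called genes left of 0.

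Over the 46 IPs and inputs, the genes whose levels were most like *Chat* were other members and a few genes outside the list. The likeness was Pearson's r of log2 CPM over 46 libraries that share line and fraction, and is a description. *Slc18a3* (r = 0.98), *Slc5a7* (0.98) and *Slc10a4* (0.96) ranked 1, 2 and 5 among the 15404 genes tested in that model. *Slc17a8* (0.81) ranked 19, *Lhx8* (0.49) ranked 869 and *Gbx2* (0.16) ranked 6018. Among the 10 genes outside the members with the highest r were *Tacr1* (0.96), *Ecel1* (0.92), *C130060K24Rik* (0.91), *Six3os1* (0.88), *Serpinf1* (0.88), *Prima1* (0.88), *Dctd* (0.87) and *Sox2* (0.84).

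From pool to pool, the members varied partly together in the 15 D2-IPs. *Slc18a3* had the highest correlation with *Chat* (Pearson's r = 0.65, permutation p = 0.00935; Spearman's rho = 0.59, p = 0.0236). *Lhx8* (r = 0.57, rho = 0.66), *Slc10a4* (r = 0.55, rho = 0.59), *Gbx2* (r = 0.54, rho = 0.47) and *Slc5a7* (r = 0.52, rho = 0.36) were positive, and *Slc17a8* was negative (r = -0.53, rho = -0.50). Over the 6 relations the adjusted permutation p of r was 0.048 for each, and that of rho ran from 0.0472 to 0.181. Without the 2 D2-IPs farthest from the *Chat* median, D2 Res 5 and D2 Sus 1, r fell to between 0.23 and 0.52 for the 5 positive genes and stood at -0.31 for *Slc17a8*, with adjusted permutation p from 0.336 to 0.447. All 6 kept their sign, but none passed without those 2 libraries. The pool D2 Sus 1 was high in the input as well: *Slc5a7* was at 63.7 CPM in its IP and 64.6 CPM in its input, the 2 highest values of the 46 libraries.

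Stress left the D2-IP levels of these genes without a call. *Chat* averaged 22.9 ± 4.45 CPM (SD, n = 5) in D2 Con, 24.0 ± 6.02 in D2 Res and 24.8 ± 4.46 in D2 Sus. *Slc5a7* averaged 38.0 ± 8.76, 43.3 ± 4.69 and 43.4 ± 13.6 CPM in the same order. For these 2 genes each difference between conditions was smaller than the larger SD of the groups compared. *Slc17a8* was lower in D2 Sus (14.8 ± 1.31 CPM, SD, n = 5) than in D2 Con (17.8 ± 1.78) and D2 Res (17.2 ± 1.56), by more than either SD. It passed the threshold of the stress comparisons, an unadjusted p under 0.05, when the fit held only the libraries compared (Sus against Con log2 -0.27, edgeR unadjusted p = 0.00913, adjusted p = 1.00), and its ranges in Con and Sus overlapped. In the fit of all IPs 0 of 7 genes passed in edgeR in Sus against Con, Res against Con or Sus against Res, where 3.68%, 3.02% and 1.66% of all genes did. DESeq2 also called 0. For *Chat* in Sus against Con the 95% interval of the fold was 0.802 to 1.47, so changes beyond that were not seen and smaller ones were not detectable. In the inputs, too, 0 of 7 genes passed in any of the 3 comparisons, by edgeR or by DESeq2, where 4.13% (Sus against Con), 2.97% (Res against Con) and 4.86% (Sus against Res) of genes did. Without 1 input, D2 Sus 3, 2 genes passed in Sus against Con and 1 in Sus against Res.

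In D1-IPs the stress differences went with 1 library. *Chat* was at 1.71, 1.77, 1.82 and 2.21 CPM in the D1 Con libraries and at 1.58, 1.98, 2.12 and 6.70 CPM in the D1 Res libraries. The value of 6.70 belonged to D1 Res 1, and the other 3 D1 Res libraries lay within or just below the range of D1 Con. In Res against Con 2 of 7 genes passed the unadjusted threshold in edgeR, where 2.11% of genes did, and DESeq2 called 3. They were *Chat* (log2 0.70 ± 0.33 SE, edgeR unadjusted p = 0.0441, adjusted p = 1.00) and *Slc18a3* (log2 1.41 ± 0.54 SE, unadjusted p = 0.0138, adjusted p = 1.00). *Slc10a4* was lower in Sus than in Res (log2 -0.79 ± 0.29 SE, edgeR unadjusted p = 0.0118, adjusted p = 0.999), where 4.23% of genes passed. In Sus against Con 0 of 7 passed by edgeR or DESeq2, where 5.34% of genes did. Without D1 Res 1, 0 of 7 genes passed in either comparison, and the log2 fold change of Res against Con was 0.02 for *Chat* and 0.44 for *Slc18a3*.

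D1 Res 1 was also the highest of the 13 D1-IPs for *Slc5a7* (12.1 CPM, the others 2.48 to 5.88), *Slc18a3* (2.93 CPM, the others 0.147 to 1.15) and *Slc10a4* (5.37 CPM, the others 1.05 to 3.24), and still below every D2-IP for each. D1 Res 1 was the highest for *Lhx8* (7.41 CPM, the others 2.51 to 6.38) and *Gbx2* (3.55 CPM, the others 1.21 to 2.68) too, but not for *Slc17a8* (7.59 CPM). Its summed levels of thalamic and habenular markers (92.2 CPM, the others 33.7 to 81.0), of endothelial markers (9.15 CPM, the others 5.14 to 8.56), of transcription factors and receptors of cholinergic interneurons (87.7 CPM, the others 50.1 to 82.4) and of genes for acetylcholine breakdown and choline supply (237 CPM, the others 173 to 202) were likewise the highest of 13. Its D2-MSN markers, at 2347 CPM, lay within the range of the others (2061 to 3470). From the top of the 13 D1-IPs it ranked 2 for oligodendrocyte and for monoamine neuron markers and 3 for astrocyte markers. Its rank was 11 for D1-MSN markers and for markers shared by both MSN types. The part of these other cells in the result was not tested.

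Whether the stress response differed between the lines was tested by the interaction. At an adjusted p under 0.05 in edgeR 0 of 7 genes were called in each of the 3 comparisons, and 0% of all 14224 genes were. At an unadjusted p under 0.05, 1 of 7 passed, *Slc18a3* in Res against Con (log2 -1.38 ± 0.61 SE, edgeR unadjusted p = 0.0327, adjusted p = 1.00), where 2.36% of all genes did. In Sus against Con 1.82% and in Sus against Res 2.03% of genes did, and 0 of 7 members. Without D1 Res 1 the *Slc18a3* value was -0.41. DESeq2 also called 0 of 7.

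In the libraries labelled Sirt1-KO the check of the targeted gene came first. *Sirt1* counts gave 10.2, 13.2, 15.2 and 16.2 CPM in those 4 libraries and 13.1, 14.4, 14.8 and 16.6 CPM in the 4 D1 Con libraries, and 3 of the 4 lay within the D1 Con range. The log2 difference was -0.12 (two-sided exact permutation p = 0.629, n = 4 and 4). A count over the whole gene does not show whether the floxed part is missing, so the check neither bears out nor goes against the labels.

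Among the cholinergic genes, *Slc5a7* was at 1.12, 1.49, 1.78 and 1.97 CPM in the libraries labelled Sirt1-KO and at 2.50, 3.48, 3.75 and 4.13 CPM in D1 Con. The groups did not overlap, and the difference was 2.16-fold (log2 -1.11 ± 0.22 SE, edgeR adjusted p = 0.0356). *Chat* was at 0.596, 0.603, 1.03 and 1.58 CPM against 1.62, 1.69, 1.72 and 2.10 CPM (log2 -0.93 ± 0.31 SE, adjusted p = 0.145). *Gbx2* was at 0.286, 0.491, 0.873 and 0.976 CPM against 1.15, 1.94, 2.53 and 2.55 CPM (log2 -1.65 ± 0.38 SE, adjusted p = 0.0533). These 2 genes did not overlap between the groups either but missed the threshold. Of all 13626 genes, 9.53% did not overlap between these groups, and 5.11% were lower without overlap.

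*Slc10a4* (log2 -0.97 ± 0.37 SE), *Lhx8* (-0.91 ± 0.35) and *Slc17a8* (-0.72 ± 0.27) had edgeR adjusted p from 0.203 to 0.208 and overlapped between the groups. *Slc18a3*, with 2 to 12 counts in the libraries labelled Sirt1-KO and 8 to 19 in D1 Con, was below the filter. Its levels overlapped (exact permutation p = 0.114, where 4 against 4 cannot go below 0.0286). In all 1 of 6 tested genes was lower and 0 were higher, where 0.749% of 13626 genes were called and 0.47% were lower, and the median log2 fold change of the 6 was -0.95, against 0.00 over all genes.

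The call for *Slc5a7* did not survive the loss of most single libraries. It was lost when any 1 of 6 of the 8 libraries was left out: D1 Con 2, 3 or 4, or Sirt1-KO 1, 3 or 4. Without D1 Con 1, *Slc5a7* and *Gbx2* were called. Without Sirt1-KO 5, which held the highest *Chat*, *Slc10a4*, *Lhx8*, *Slc17a8* and *Gbx2* of its group, 5 genes were called, all tested members except *Slc17a8*. Beside the member genes, D1-MSN markers summed to between 896 and 1121 CPM in the libraries labelled Sirt1-KO and to between 1192 and 1468 CPM in D1 Con. GABAergic interneuron markers summed to between 317 and 376 CPM and between 225 and 306 CPM in the same order. Neither sum overlapped, and 0 of 4 and 0 of 8 genes were called. The GABAergic genes did not move alike. *Nos1*, *Npy* and *Vip* were higher in the libraries labelled Sirt1-KO and *Pvalb* was lower (2.00 to 3.58 against 4.25 to 6.03 CPM), each without overlap. *Cck* ran from 70.1 to 153 CPM there and from 39.0 to 98.9 CPM in D1 Con. Further, 6 of 6 cortical excitatory markers had positive log2 fold changes in the libraries labelled Sirt1-KO (median 0.85, none called), and their summed level ran from 855 to 1610 CPM there and from 380 to 1043 CPM in D1 Con. The 8 libraries came in 1 table, but its 4 D1 Con libraries are repeated from the table of IPs and inputs. The labels give the knockout mice no age and do not list HTSeq for their libraries. A difference between the sets of animals, or in how their libraries were made and processed, cannot be told apart from the genotype. The part of these markers in the result was not tested.

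**Figure D5:**
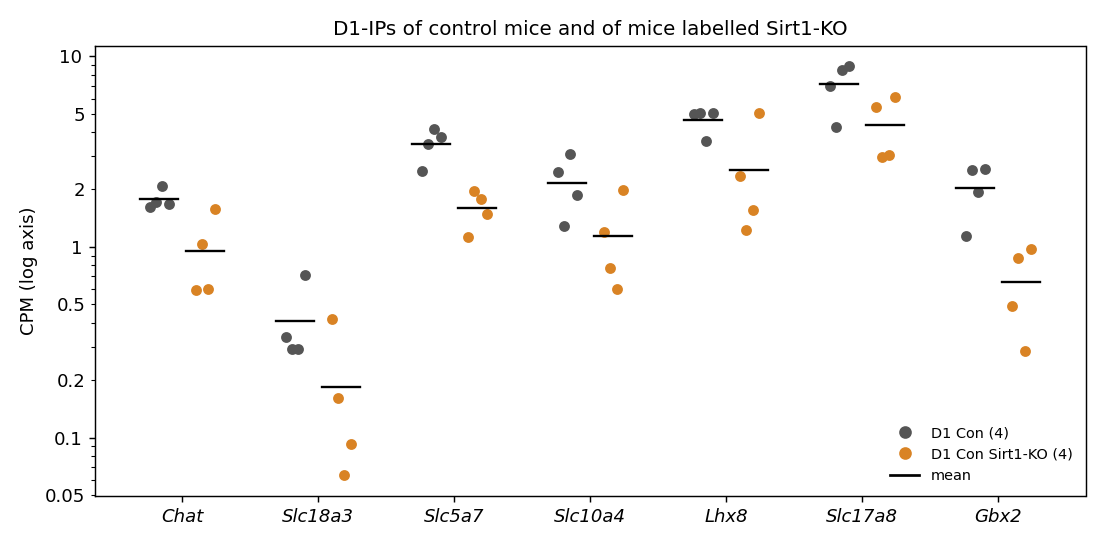
CPM on a log axis of each gene in the 4 D1 Con and the 4 D1 Con Sirt1-KO libraries, 1 point per library with a line at the mean. The means of all 7 genes are lower in the libraries labelled Sirt1-KO; the points of Chat, Slc5a7 and Gbx2 do not overlap between the groups, and those of the other 4 do.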

How the data were processed

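Per the labels, reads were trimmed with cutadapt, checked with FastQC, aligned with STAR to mm10 and, in the IPs and inputs, counted with HTSeq; versions are not given in the sources used here. The authors deposited raw counts per gene in 2 tables, 1 of them repeating the 4 D1 Con libraries, and 2 columns that match no sample were not used. The 5 entries naming no gene held 27.9% of reads on average over the IPs and inputs and were left out. Their share was 21.5% (18.0 to 28.3%) in IPs and 37.8% (35.9 to 40.0%) in inputs, without overlap. Depth is given above, and counting error is largest for *Slc18a3* in D1-IPs.

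Counts were tested with edgeR 4.0.16 (quasi-likelihood, TMM, filterByExpr at 10 counts and 15 in total) in R 4.3.3, with Benjamini-Hochberg adjustment over all genes tested and intervals of 95% from the fit. Single values were compared by exact permutation tests on log2 CPM (prior count 2, or 0.1 CPM added for Sirt1-KO), and the correlations with 100000 permutations. The comparison of *Chat* with other members within pools and the exact Sirt1-KO tests were added after values were seen. DESeq2 1.42.0, other scalings and filters, replicate blocks and left-out libraries were alternatives. The fits were tested on simulated data. All 7 members are named, as are the genes of the 2 other cholinergic lists called between the IPs and the 10 genes most like *Chat*, except 2 genes that are not reported here. Members and lists were chosen with earlier results of these data known. Pools of one number are taken as one pool, since inputs were what remained of the same homogenates, though over all genes the deviations of IP and input correlated above 0.1 in 3 of 18 pools (median 0.030). D1-IPs and D2-IPs of one number, which come from different mice, did so in 6 of 13 pairs (median 0.075). These correlations thus do not bear out the pairing. Stressed mice came from several batches of defeat, but the batch of each pool is not given in the labels, so p-values measure the spread between pools.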

Additional observations from a re-analysis of the deposited data

Results flagged for a closer look

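In groups of 4 or 5 libraries, 49 groups were screened for a library far from the others by Dixon's criterion, and 9 were marked, where chance would mark about 1 in 20. D1 Res 1 was the highest of 4 and apart from the others for *Chat* (6.70 CPM, the others 1.58 to 2.12), *Slc18a3* (2.93 CPM, the others 0.371 to 0.800), *Slc5a7* (12.1 CPM, the others 3.01 to 4.52) and *Gbx2* (3.55 CPM, the others 1.84 to 2.05). D1 Con 4 was apart for *Slc18a3* (0.749 CPM, the others 0.307 to 0.357), a level of few counts, and D1 Con 3 was low for *Lhx8* (3.82 CPM, the others 5.24 to 5.29). In D2-IPs, D2 Res 5 was high for *Chat* (34.4 CPM, the others 19.8 to 23.6), D2 Con 2 low for *Slc10a4* (13.6 CPM, the others 17.5 to 19.1) and D2 Con 1 high for *Gbx2* (4.51 CPM, the others 1.67 to 2.41).

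The step from input to IP differed between the lines by the interaction test in edgeR for *Chat* (log2 3.42), *Slc18a3* (3.92), *Slc5a7* (3.25), *Slc10a4* (2.89) and *Slc17a8* (1.02), as described above.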

How the results depend on the processing

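The counts of member genes called between D2-IPs and D1-IPs over the 3 conditions (5), between D1-IPs and inputs (6) and for the difference between the lines (5) were equal under every alternative run. In Sus alone (5) the count was 4 without D1 Sus 3 and 6 without D1 Sus 2 or D2 Sus 5. Between D2-IPs and inputs (3) it ran from 2 to 4. For D1-IP Res against Con (2), 1 gene passed with only the libraries compared and 0 at adjusted p, and 0 to 3 with 1 library left out. For D1-IP Sus against Res (1), 2 passed with all genes kept or with DESeq2, 0 at adjusted p, and 0 to 4 with 1 library left out. For D2-IP Sus against Con and Sus against Res (0), 1 passed, *Slc17a8*, with only the libraries compared. With 1 library left out, D1-IP Sus against Con (0) ranged from 0 to 1, input Sus against Con (0) from 0 to 2 and input Sus against Res (0) from 0 to 1. For Sirt1-KO (1), 2 were called with library size alone, all genes kept or DESeq2, and 0 to 5 with 1 library left out. The replicate number as a block called 6 of 6 for Sirt1-KO; by its construction it compares only the 3 shared numbers, so that D1 Con 2 and Sirt1-KO 5 drop out. Those numbers did not pair the libraries (correlation of deviations -0.02 to 0.04 over 3 pairs). Blocks changed no other count by over 1.5 times. The correlations with *Chat* (6) fell to 0 past the threshold without the 2 farthest libraries. Low counts limit *Slc18a3* in D1-IPs and in Sirt1-KO, and *Gbx2* in D2-inputs (12 to 59 counts) and in Sirt1-KO (9 to 27 counts).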
